A study of Mus musculus with 4 samples.

Results

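The 9 genes described here carry antigen presentation by MHC class II: the class II chain genes H2-Aa, H2-Ab1 and H2-Eb1, the invariant chain gene Cd74, the peptide loading genes H2-DMa and H2-DMb1, the endosomal processing genes Ctss and Ifi30, and Ciita, which encodes the coactivator of the class II genes. They were taken by symbol from 17762 genes listed in at least 1 of 4 libraries, and all 9 were listed in every library. The members were chosen by their counts and FPKM in these same 4 libraries, which were known when the genes were proposed, so their levels and their difference between genotypes are given as a description, with no test. Polyadenylated RNA came from adenomas of C57BL/6 mice aged 110 days that all carried ApcMin, a mutant allele of the tumour suppressor gene Apc that causes intestinal tumours. There were 2 libraries labelled Strap WT (WT) and 2 labelled Strap KO (KO), and the series' design text calls the second genotype StrapIEKO. No source used here gives the Cre driver, the deleted part of Strap, or how many mice or adenomas were pooled in a library.

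MHC class II molecules are pairs of an alpha and a beta chain that show peptides from the endosome to CD4 T cells. They are made in dendritic cells, macrophages and B cells, and also in epithelial cells of the intestine that receive interferon gamma. In the endoplasmic reticulum the pair binds the invariant chain, whose remnant in the groove is exchanged for peptide with the help of the DM heterodimer. CIITA does not bind DNA itself but is recruited to the promoter by a complex of RFX, CREB and NF-Y on elements called the X and Y boxes.

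These elements can be read in the RefSeq promoter sequences (GRCm38.p6, the assembly called mm10), which cover 250 bases before to 50 bases after a gene's start. The table held promoters for 6 of the 9 members, and Ciita, Cd74 and H2-Ab1 were the missing entries. The search pattern was chosen after the sequences were seen: CNNGNAAC for the core of the X box, then GATTGG, a Y box that holds the CCAAT sequence in reverse, at most 40 bases downstream on the same strand and without overlap. Both strands were searched. The pair stands in the promoters of H2-Aa, H2-Eb1 and H2-DMb1, which are shown because their levels moved together between libraries, and in those of H2-Oa, H2-Ob and H2-Eb2, of which H2-Ob is shown because its transcript was nearly absent. Capitals mark the X and Y box letters, and each window is written 5′ to 3′ on the strand of the gene.
H2-Aa: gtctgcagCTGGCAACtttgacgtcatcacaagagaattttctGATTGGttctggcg
H2-Eb1: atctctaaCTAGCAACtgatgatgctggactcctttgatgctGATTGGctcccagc
H2-DMb1: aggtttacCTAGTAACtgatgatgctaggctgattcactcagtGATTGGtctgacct
H2-Ob: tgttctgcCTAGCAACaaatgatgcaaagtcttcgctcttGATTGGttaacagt
The windows lie at chr17:34287859-34287915 on the minus strand for H2-Aa, and on the plus strand at chr17:34305765-34305820 for H2-Eb1, chr17:34153086-34153142 for H2-DMb1 and chr17:34238807-34238860 for H2-Ob. The X box begins 84 bases before the start of H2-Aa, 94 before that of H2-Eb1, 97 before that of H2-DMb1 and 90 before that of H2-Ob. Between both boxes lie 27 bases in H2-Aa and H2-DMb1, 26 in H2-Eb1 and 24 in H2-Ob. Of all 32851 promoters in the table, 39.1% hold the X letters, 16.1% hold the Y letters and 0.539% hold the pair. The pair was not matched in the promoters of H2-DMa (2 listed), Ctss or Ifi30, nor in that of H2-DMb2, which is not a member. A missing match says only that these letters do not follow each other in those windows.

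Total expected counts per library lay between 14084831 and 15640941. Levels are given as CPM, counts scaled to a common library total with TMM factors, and each ± is an SD between the 2 libraries of a genotype. Separate animals are not stated for the libraries, so p-values measure only the spread between these libraries. The source of that spread was not tested. Strap had 2445 and 1724 counts in WT replicates 1 and 2 and 300 and 364 counts in KO replicates 1 and 2. The labelled tissue is colon adenoma. Of 8 genes listed for colon, Car1, Aqp8, Hoxb13, Hoxd13 and Insl5 were at most 4.22 CPM in any library. Car4, Slc26a3 and Ang4 were at least 107 CPM in every library. Whether these 8 genes are specific to colon was not examined. The small intestine genes Apoa1 and Sis were at least 2635 and 1969 CPM in every library, but genes of this list differed between libraries. Apoa4 stood at 4201 and 143 CPM (WT replicates 1 and 2) and 3340 and 1610 CPM (KO replicates 1 and 2). Fabp6 went another way, at 422 and 2453 CPM (WT) and 894 and 118 CPM (KO). How these differences bear on the class II levels was not tested. The X-inactivation RNA Xist reached 968 CPM (WT replicate 1) and 197 CPM (KO replicate 1), and at most 0.954 CPM in both replicates 2. Ddx3y, on the Y chromosome, was not listed in either replicate 1 and stood at 39.1 and 33.3 CPM in WT and KO replicate 2. With these differences, the 2 libraries of a genotype were not repeats of the same RNA. Replicate number and the pattern of Xist and Ddx3y cannot be told apart in these libraries, and no label names that pattern.

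The class II genes varied more between the libraries of a genotype than between genotypes. Ciita, H2-Aa, H2-Ab1, H2-Eb1, Cd74, H2-DMa and H2-DMb1, 7 of the 9 members, were each highest in KO replicate 2 and next highest in WT replicate 2. For these 7 genes WT replicate 2 stood 2.62 to 3.89 times above WT replicate 1, and KO replicate 2 stood 2.84 to 26.6 times above KO replicate 1. Of all 12769 genes tested, 6.05% were at least 2-fold above replicate 1 in WT replicate 2, 7.81% in KO replicate 2, and 0.916% in both. The mean of the KO libraries was 1.19 to 1.57 times the WT mean for the same 7 genes. Ctss and Ifi30 varied little in all 4 libraries.

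**Figure D1:**
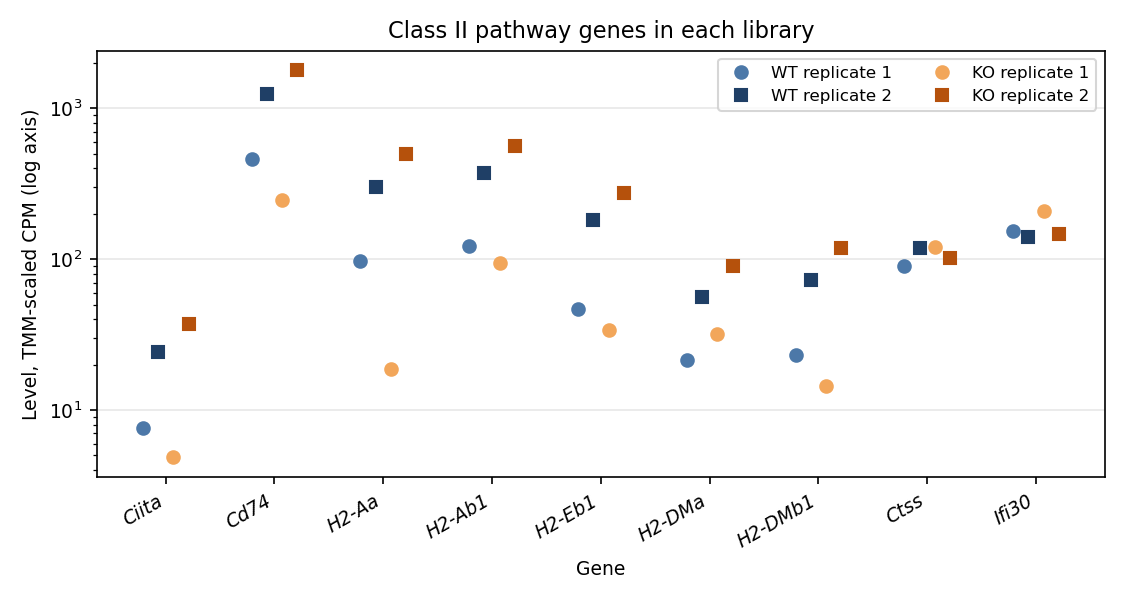
Level of each of the 9 genes in TMM-scaled CPM (log axis), with 1 point per library, circles for replicates 1, squares for replicates 2, blue for WT and orange for KO. The squares lie above the circles from Ciita to H2-DMb1, while the 4 points of Ctss lie between 90.7 and 121 CPM.

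Ciita, on chromosome 16 from 10480014 to 10531064, had 118 and 372 counts in WT replicates 1 and 2 and 71 and 543 counts in KO replicates 1 and 2. These counts correspond to 7.57 and 24.1 CPM (WT) and 4.85 and 37.0 CPM (KO). Both replicates 2 lay above both replicates 1, and the KO libraries lay on either side of the WT libraries. The group means were 15.9 ± 11.7 CPM in WT and 20.9 ± 22.7 CPM in KO (n = 2 each), with a fitted log2 fold change of 0.40 (SE 0.95).

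Among the chains, H2-Ab1 encodes the beta chain of the I-A molecule and lies on chromosome 17 from 34263227 to 34269418. It stood at 122 and 375 CPM (WT replicates 1 and 2) and 94.7 and 565 CPM (KO replicates 1 and 2). H2-Eb1, the beta chain gene of I-E on chromosome 17 from 34305867 to 34316674, stood at 46.6 and 182 CPM (WT) and 34.1 and 275 CPM (KO). Both genes had the order seen for Ciita, highest in KO replicate 2 and lowest in KO replicate 1. The log2 fold change was 0.41 (SE 0.87) for H2-Ab1 and 0.44 (SE 0.9996) for H2-Eb1. The gene of the I-E alpha chain, annotated as the pseudogene H2-Ea-ps in this strain's assembly, was not listed in any library.

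H2-Aa, the alpha chain gene of I-A on chromosome 17 from 34282744 to 34287823, spread most. H2-Aa was at 97.7 and 303 CPM (WT replicates 1 and 2), at 18.6 CPM (KO replicate 1) and at 495 CPM (KO replicate 2). The last 2 values differed 26.6-fold, against 5.96-fold for its partner chain gene H2-Ab1 in the same libraries. The ratios between chain genes and between DM genes were singled out after their values were seen. On the scale of FPKM, which divides by transcript length, H2-Aa reached 0.886, 0.895 and 0.971 of the H2-Ab1 level in WT replicate 1, WT replicate 2 and KO replicate 2, and 0.217 in KO replicate 1. The H2-Aa level relative to its partner was thus low in KO replicate 1 alone, from 272 counts of H2-Aa and 1387 counts of H2-Ab1. RSEM divides reads among similar genes and maps them to a single reference allele of each H2 gene, and the part of either in this ratio was not tested.

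Cd74, the invariant chain gene on chromosome 18 from 60803849 to 60812652, was the most abundant member per length in WT replicate 1, WT replicate 2 and KO replicate 2, at 391, 1057 and 1559 FPKM. In KO replicate 1 it stood at 192 FPKM, below Ifi30 at 207 FPKM. In CPM, Cd74 was at 463 and 1249 in WT and at 247 and 1793 in KO, the log2 fold change being 0.25 (SE 0.92). The ratio of Ciita to Cd74 in FPKM was nearly fixed, at 0.00381 and 0.00447 in WT and 0.00442 and 0.00481 in KO. That ratio spanned 1.26-fold while the level of Cd74 itself spanned 7.27-fold. H2-DMb1 kept a ratio to Cd74 between 0.0490 and 0.0649, H2-Ab1 between 0.278 and 0.406 and H2-Eb1 between 0.0749 and 0.115.

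**Figure D2:**
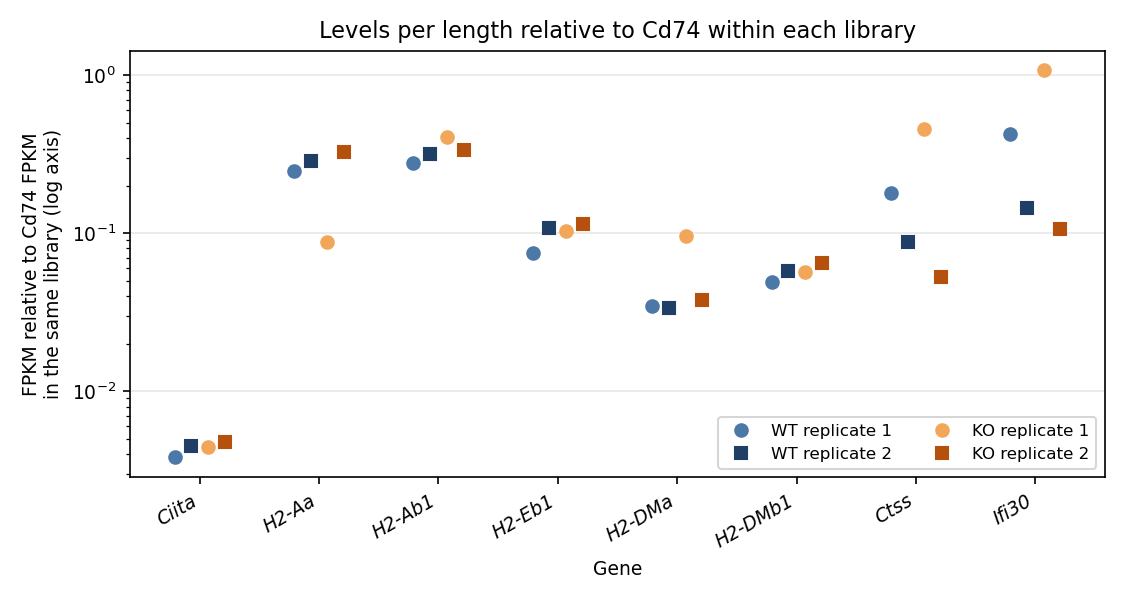
FPKM of 8 genes divided by the FPKM of Cd74 in the same library (log axis), with 1 point per library. Points of Ciita, H2-Ab1, H2-Eb1 and H2-DMb1 lie close together, H2-Aa is low and H2-DMa high in KO replicate 1, and Ctss and Ifi30 spread 8.59-fold and 10.2-fold.

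H2-DMa and H2-DMb1 encode the heterodimer that loads peptide, and both lie on chromosome 17, from 34119693 to 34139101 and from 34153191 to 34160229. H2-DMb1 stood at 23.2 and 73.2 CPM (WT replicates 1 and 2) and 14.4 and 118 CPM (KO replicates 1 and 2), in the order of Ciita. Its near copy H2-DMb2 had at most 0.477 CPM, and how RSEM divided reads between these genes was not tested. H2-DMa stood at 21.5 and 56.4 CPM (WT) and 31.8 and 90.2 CPM (KO), so that for this gene alone among the 7 the lowest library was WT replicate 1. Its ratio to H2-DMb1 in FPKM was 0.708 and 0.589 in WT, 1.69 in KO replicate 1 and 0.583 in KO replicate 2. The log2 fold changes were 0.65 (SE 0.61) for H2-DMa and 0.46 (SE 0.96) for H2-DMb1.

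The processing genes did not follow the chains. Ctss encodes cathepsin S, the protease that trims the invariant chain in antigen-presenting cells, and lies on chromosome 3 from 95526786 to 95556405. It stood at 90.7 and 118 CPM (WT replicates 1 and 2) and 121 and 102 CPM (KO replicates 1 and 2). Ifi30, on chromosome 8 from 70762773 to 70766663, encodes the thiol reductase GILT, which opens disulfide bonds of antigens in the endosome. Ifi30 was at 153 and 141 CPM (WT) and 207 and 147 CPM (KO). Both were highest in KO replicate 1, the library with the least class II chain RNA. The log2 fold changes were 0.09 (SE 0.23) for Ctss and 0.27 (SE 0.24) for Ifi30.

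Between genotypes, the fitted log2 fold change was positive for all 9 members, with a median of 0.40 against 0.00 over all genes tested, but it was negative for Cd74 (-0.19) and H2-Aa (-0.82) with the replicate number as a block, for Cd74 (-0.23), H2-Aa (-0.84) and H2-DMb1 (-0.01) in limma on log2(FPKM + 1), and for most members without WT replicate 1 or KO replicate 2. For none of the 9 did the genotypes separate, whereas 50% of all genes had no overlap between genotypes, 25.4% with KO above WT and 24.6% with KO below. The edgeR quasi-likelihood test with Benjamini-Hochberg adjustment over all genes called 0 of the 9 members, and 0.00783% of all genes, at an adjusted p under 0.05. At an unadjusted p under 0.05 it counted 0 of the 9, against 15.8% of all genes. DESeq2 called 0 of the 9 members and 5.03% of all genes, 1.77% higher and 3.26% lower in KO, and limma on log2 FPKM called 0 of either. These counts are a description, since the members were proposed from the same libraries.

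The sign of the difference turned with the library left out. Without WT replicate 1 the median log2 fold change of the 9 members was -0.20, and without KO replicate 2 it was -1.71. Without WT replicate 2 it was 1.45, and without KO replicate 1 it was 1.22. For Cd74 these 4 values were -0.31, -1.80, 1.15 and 1.07. With a library left out, the single library of its genotype is assumed to vary like the other genotype.

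**Figure D3:**
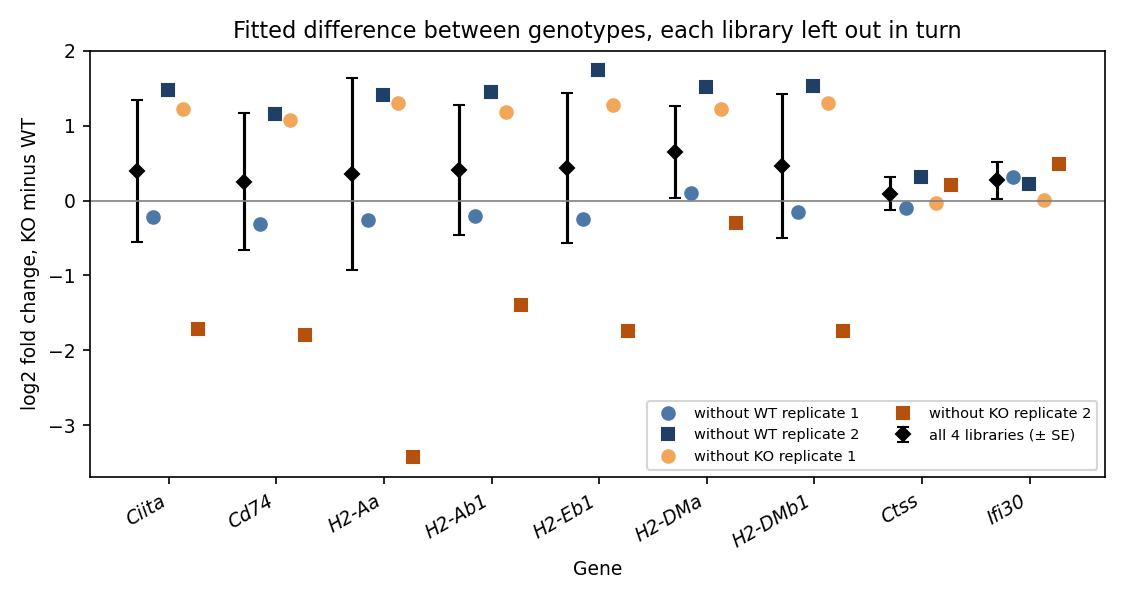
Fitted log2 fold change (KO minus WT) of each of the 9 genes from all 4 libraries (black diamond, ± SE) and with each library left out (coloured points). For Ciita, Cd74, the chain genes and H2-DMb1 the points without WT replicate 1 and without KO replicate 2 lie below 0 and the others above 0.

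The remaining genes of the class II locus were at the edge of detection. H2-DMb2, H2-Oa, H2-Ob and H2-Eb2 summed to 0.128 and 0.519 CPM (WT) and 0 and 1.29 CPM (KO), and none had enough counts to be tested. H2-Oa and H2-Ob encode DO, which holds DM in check and is typical of B cells and some dendritic cells. Their promoters hold the same pair of boxes as those of H2-Aa and H2-Eb1.

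The factors that bind class II promoters or act with CIITA were measured in full. Of 14 genes for RFX, NF-Y and CREB subunits, regulators and coactivators, 14 were tested and edgeR called 0 in either direction. It called 0.00783% of all genes, too few for a count of 0 to set a list apart. The median log2 fold change of the 14 was 0.00. Rfx5, which encodes the DNA-binding RFX subunit, stood at 13.3 and 19.1 CPM (WT) and 11.4 and 19.1 CPM (KO) (adjusted p = 0.927 in edgeR). Both replicates 2 lay above both replicates 1, the pattern of Ciita, for Rfx5 and Rfxank, 2 of the 14, against 9.88% of all genes tested. In the endosomal list 11 of 12 genes were tested and 0 were called by edgeR, against 0.00783% of all genes. Ctsz, a cathepsin gene, stood at 133 and 122 CPM (WT) and 290 and 242 CPM (KO) (log2 fold change 1.06; adjusted p = 0.18 in edgeR, 0.00124 in DESeq2). Ctsl, the cathepsin L gene, was at 136 and 18.2 CPM (WT) and 12.02 and 7.90 CPM (KO) (adjusted p = 0.252 in edgeR). Without WT replicate 2 its log2 fold change was -3.75, which rests on WT replicate 1 alone for WT.

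Interferon gamma is the classical inducer of Ciita, and IRF1 is among the factors that act in this response. Ifng itself was at most 0.204 CPM in any library. Of 16 genes on this axis 14 were tested and 0 were called by edgeR, against 0.00783% of all genes. In edgeR 4 of the 14 had an unadjusted p under 0.05, against 15.8% of all genes. DESeq2 called 2, against 5.03% of all genes. Nlrc5, the CIITA relative that activates class I genes, stood at 2.50 and 4.48 CPM (WT) and 8.81 and 48.9 CPM (KO) (log2 fold change 3.05, adjusted p = 0.227 in edgeR and 0.00268 in DESeq2). Irf1 was at 84.8 and 175 CPM (WT) and 196 and 204 CPM (KO). Nlrc5 and Irf1 were each higher in KO than in WT in every library, as were 25.4% of all genes. Both replicates 2 lay above both replicates 1 for 2 of the 14 genes, Cxcl9 and Ido1, of which Ido1 was at 1.67 and 11.9 CPM (WT) and 2.80 and 11.7 CPM (KO).

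Among genes for T cell co-signals, which professional antigen-presenting cells add to class II, several were scarce. Cd80, Cd86, Cd40 and Pdcd1lg2 were each at most 0.615 CPM, and Tnfsf4 was not listed. Tnfsf9 stood at 7.06 and 1.88 CPM (WT) and 1.98 and 2.25 CPM (KO). Cd274 was at 1.15 and 1.75 CPM (WT) and 1.57 and 4.23 CPM (KO). Icosl stood at 12.8 and 7.79 CPM (WT) and 4.10 and 4.23 CPM (KO) (log2 fold change -1.31, adjusted p = 0.266 in edgeR). Of 9 genes of a list of the epithelial response, 8 were tested and edgeR called 0, against 0.00783% of all genes. DESeq2 called Reg3g, an antibacterial lectin gene at 594 and 1726 CPM (WT) and 3993 and 2570 CPM (KO) (adjusted p = 0.297 in edgeR, 0.0469 in DESeq2). Nos2, the inducible nitric oxide synthase gene, was at 80.9 and 244 CPM (WT) and 71.3 and 148 CPM (KO), and was the 1 gene of these 8 with both replicates 2 above both replicates 1. Over all 50 tested genes of the pathway lists 7 had that pattern, against 9.88% of all genes.

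Markers of the cells that could carry class II RNA were compared with the chains. H2-Aa, H2-Ab1 and H2-Eb1 summed to 266 and 859 CPM (WT replicates 1 and 2) and 147 and 1335 CPM (KO replicates 1 and 2). In bulk RNA, fewer cells of a type and less RNA per cell cannot be told apart. Of 13 B cell markers 9 were at most 1 CPM in every library. The B cell receptor gene Cd79a reached 1.499 CPM and the surface marker gene Ms4a1 1.29 CPM, both in KO replicate 2, and the list summed to between 6.22 and 18.6 CPM. These defining markers were named for their role, beyond the rule for abundant markers. Most of the B cell sum in WT replicate 2 was Spib at 16.5 CPM, a gene that intestinal M cells also express. Of 12 listed dendritic cell markers 7 were at most 1 CPM, with Flt3 at most 0.477 and Clec9a at most 0.613 CPM, and 2 more, Ccr7 and Cd207, were not listed. Their sum was 7.83 and 4.61 CPM (WT) and 6.76 and 17.6 CPM (KO). The largest part of the sum in KO replicate 2 was Klrd1 at 5.38 CPM, a gene that natural killer cells also express. Itgax came next at 4.23 CPM. Of the 12 listed dendritic cell markers 10 were highest in KO replicate 2, most of them at few counts. Among those tested it was 5 of 5, against 2155 of all 12769 genes tested. The complement gene C1qa and the receptor gene Csf1r, which define macrophages, reached 1.15 and 1.67 CPM, both in WT replicate 1. The macrophage list summed to 62.2 and 42.4 CPM (WT) and 92.5 and 84.8 CPM (KO) and was not highest where class II was highest. Cd14, a coreceptor gene for bacterial lipopolysaccharide, contributed 8.85 to 19.8 CPM.

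**Figure D4:**
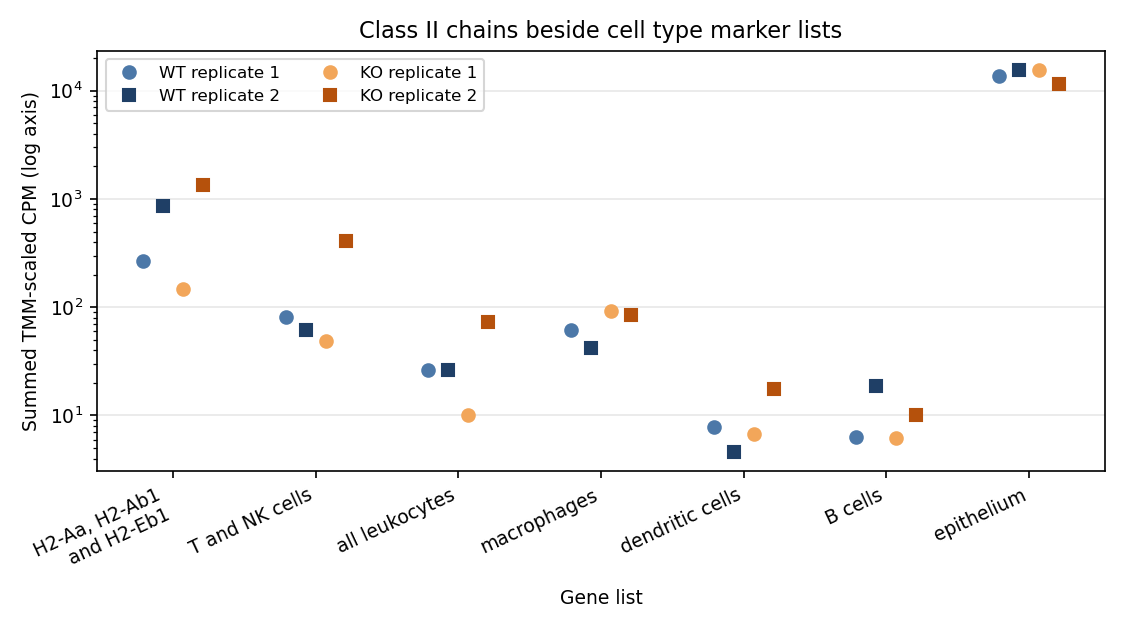
Summed TMM-scaled CPM (log axis) of the 3 class II chain genes and of 6 marker lists, with 1 point per library. The chain sum is high in both replicates 2, T and natural killer cell markers are high in KO replicate 2 alone at 409 CPM, and the epithelial sum stays between 11593 and 15584 CPM.

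Lymphocyte RNA moved with the class II genes in part. T and natural killer cell markers summed to 81.5 and 61.3 CPM (WT) and 48.6 and 409 CPM (KO). Of the 18 markers 17 were highest in KO replicate 2. Among those tested it was 13 of 13, against 2155 of all 12769 genes tested. Gzma, a granzyme gene, was at 26.4 and 14.99 CPM (WT) and 15.03 and 152 CPM (KO). The 8 markers common to all leukocytes summed to 26.3 and 26.3 CPM (WT) and 10.2 and 72.6 CPM (KO). KO replicate 2 was thus highest and KO replicate 1 lowest in both leukocyte and class II RNA, whereas the WT libraries had equal leukocyte sums and chain sums of 266 and 859 CPM. For each CPM of the leukocyte list the chain sum was 10.1 and 32.6 in WT and 14.5 and 18.4 in KO. The part of leukocyte content in the class II levels was not tested.

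Among all genes tested, the 10 most like the class II profile included Stat4, Gbp8, Plek, Camkk1, Grap2, E230025N22Rik, P2rx3, Gm10069 and Vnn3. Likeness was the root mean square difference over 4 libraries between centred log2 CPM and the median centred profile of the 9 members, and it lay between 0.123 and 0.305 for the 10 genes. All 10 were scarce, at most 5.25 CPM in any library, so their profiles rest on few counts. Among genes with a mean of at least 10 CPM, a limit added after these values were seen, the 10 most like were Ptprc, Lcp1, Mroh7, Gm1966, Gm8979, Gm4070, Gvin1, Plekhn1, Nlrp9b and Nr1d1, at differences between 0.429 and 0.631. Gvin1 encodes a very large GTPase induced by interferon. Gvin1 stood at 305 and 717 CPM (WT replicates 1 and 2) and 161 and 504 CPM (KO replicates 1 and 2). Gm8979 stood at 388 and 876 CPM (WT) and 235 and 685 CPM (KO), and Gm1966 at 112 and 278 CPM (WT) and 65.2 and 200 CPM (KO). These genes shared the high replicates 2 and the lowest level in KO replicate 1, but were highest in WT replicate 2. How RSEM divided reads among Gvin1, Gm8979, Gm1966 and Gm4070 was not tested, so they may not be independent matches. Ptprc, the leukocyte gene for CD45, had the full order of Ciita at 7.70 and 10.9 CPM (WT) and 2.60 and 21.9 CPM (KO), an order held by 2.64% of all genes and by 6 of the 9 members.

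**Figure D5:**
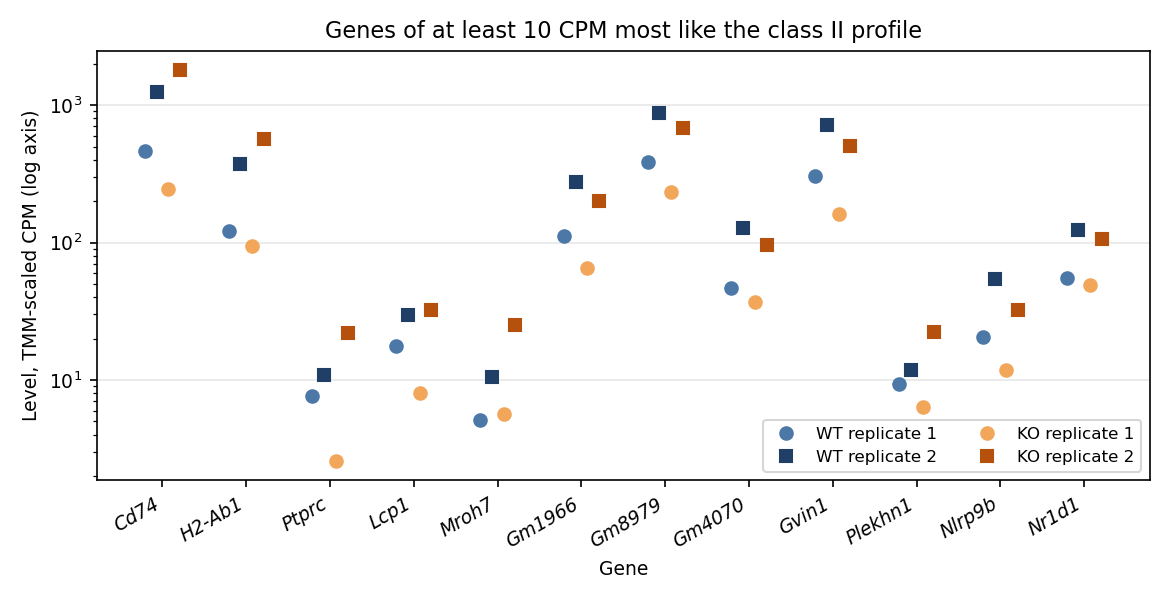
Level in TMM-scaled CPM (log axis) of Cd74 and H2-Ab1 beside the 10 genes of at least 10 CPM with the most similar profile, with 1 point per library. Gvin1, Gm1966, Gm8979 and Gm4070 are highest in WT replicate 2 and lowest in KO replicate 1, while Cd74 and H2-Ab1 are highest in KO replicate 2.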

How the data were processed

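Polyadenylated RNA of 4 adenoma libraries, 2 WT and 2 KO, was sequenced on a BGISEQ-500. RSEM 1.2.12, Bowtie2 2.2.5 and the build mm10 stand in the submitters' processing notes. The deposited tables hold expected counts estimated by RSEM, per the file headers. FPKM, a level scaled by length and library size, stands beside them in the deposited tables, per the file headers. The smallest FPKM listed is 0.01, and unlisted genes entered the fit as 0. No source used here states strandedness. A single row that names no gene was dropped from every library, at most 0.000233% of counts. Of 203 list entries 194 matched a gene.

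Rounded expected counts were tested for KO against WT with edgeR 4.0.16 in R 4.3.3 (quasi-likelihood, TMM, filterByExpr, genotype only), over 12769 genes with Benjamini-Hochberg adjustment at 0.05. The biological coefficient of variation was 32.5%. DESeq2 1.42.0 and limma 3.58.1 were alternatives. The edgeR fit was also run on simulated counts as a check of the script. With a library left out, filterByExpr was redone on the other 3. After those counts of calls were seen, the fits were repeated with the 12769 genes kept, and both versions are given in the closing section. Same-numbered libraries deviated with a correlation of -0.109, and no label pairs them.

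The members and gene lists were chosen with earlier results of these data known. The crossed pairing, the promoter pattern, the ratios between chain and between DM genes and the ranking of genes of at least 10 CPM were chosen after values were seen. Named were all 9 members, pathway genes behind a count, abundant markers and the 10 genes most like the members. Defining markers at low levels, and Apoa4 and Fabp6 for their spread between libraries, were named beyond that rule. Some genes that this rule would name are not reported here.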

Additional observations from a re-analysis of the deposited data

How the results depend on the processing

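Under 12 planned and 5 added alternatives 0 of the 9 class II members were called. Their median log2 fold change, 0.40, was 0.08 with the replicate number as a block, 0.07 and 0.04 in limma on log2(FPKM + 1) and log2(FPKM + 0.1), and between -1.71 and 1.45 with a library left out. With the replicate block H2-Aa had a log2 fold change of -0.82 and Cd74 of -0.19. Genes called higher and lower in KO, 1 and 0, were 0 and 0 with library size alone, 19 and 8 with no filter, 235 and 432 in DESeq2, 0 and 0 in limma with either pseudocount, and 46 and 70 with the replicate block. A crossed replicate block, added after seeing the data, gave 65 and 99. With a library left out and the filter redone, 0 to 72 genes were called higher and 0 to 300 lower, all of them without WT replicate 2. With the 12769 genes of the fit on all libraries kept, an alternative added after those counts were seen, the calls without WT replicate 2 were 41 higher and 133 lower, those without any other library were again 0, and the members' median lay between -1.73 and 1.43. The number called without WT replicate 2 thus depended on the filter by over 1.5 times. Of the other pathway genes, 0 in edgeR, 4 were called in DESeq2 (Ctsz, Nlrc5 and Reg3g among them), 1 with the replicate block, and 0 to 3 with a library left out under either filter (Ctsl and Nt5e among the 3 without WT replicate 2). The cause of these differences was not tested. With 71 counts, Ciita in KO replicate 1 is the least precise member value.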
